A study of Mus musculus with 22 samples.

Results

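Cholesterol and fatty acids are built by a set of enzymes and their regulators, and 35 genes of this set were followed through mouse preimplantation development with and without knockdown of the histone variant H2A.Z. The genes were chosen by name, by matching a list of 35 symbols to the gene symbols of the expression table, and all 35 were found among its 55335 genes. They fall into 6 roles: 5 genes for the transcription factor SREBP and the proteins that control it (here called SREBP regulators), 7 enzymes of the mevalonate pathway, 11 enzymes of squalene and sterol synthesis, 3 of fatty acid synthesis, 7 desaturases and elongases, and 2 acyl-CoA synthetases.

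RNA was measured in mouse embryos from B6D2F1 females mated with B6D2F1 males, with and without knockdown (KD) of H2A.Z, at 3 stages. KD embryos received 3 pairs of siRNA at 20 µM, about 10 pl per embryo, injected 20 to 22 h after hCG, the hormone that triggers ovulation. Embryos were collected at 43 to 44 h as 2-cell embryos, at 78 h as morulae and at 94 h as blastocysts, 15 embryos pooled per Smart-seq2 library. There were 4 control and 3 KD libraries at the 2-cell stage, 4 and 3 at the morula stage, and 4 and 4 at the blastocyst stage, or 22 in all. What the control embryos were injected with, if anything, was not stated for these libraries, and for quantitative PCR the control embryos were called noninjected. The paper states that its experiments, apart from chromatin profiling, were done at least 3 times. Nothing given says whether libraries of a group came from separate cultures, so an adjusted p measures the spread between these libraries. A library pools whole embryos, so fewer cells of a type and less RNA per cell cannot be told apart. The paper reports that far fewer KD than control embryos became blastocysts, and describes a halt of KD embryos as morulae. It found cell counts of KD morulae and blastocysts unchanged. Whether the KD embryos pooled at 94 h matched control embryos in stage was not stated and was not tested here. Control and KD blastocysts are therefore compared by label and hour of collection.

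As background, cells make cholesterol from acetyl-CoA through mevalonate, the isoprenoid farnesyl diphosphate, squalene and lanosterol. When sterols run low, SCAP carries the SREBP precursor to the Golgi, where it is cleaved and freed to activate genes of sterol and fatty acid synthesis, and INSIG proteins hold the complex back when sterols are plentiful. Fatty acids are made from acetyl-CoA by acetyl-CoA carboxylase and fatty acid synthase and then lengthened and desaturated, and the blastocyst needs membrane for its growing number of cells and for the epithelium of the trophectoderm.

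Levels are FPKM as deposited by the authors, fragments scaled to the length of the transcript and to the size of the library. Read counts and the number of reads per library are unknown, so no counting interval could be given. FPKM summed over all genes ran from 423915 to 722576 per library. A relative depth was read from the most common low value of FPKM times length in single-exon genes. It ran from 14.8 in blastocyst control 4 to 28.8 in morula control 8. This depth is uncertain, since only 15.9% to 25.7% of low values lay within 0.05 of a whole multiple of that value. Between 10143 and 12090 genes reached an FPKM of 1 in a library. Tests were fitted with limma on log2(FPKM + 1) across all genes that reached an FPKM of 1 in 3 or more libraries of the comparison. A gene passed when its Benjamini-Hochberg adjusted p was under 0.05, and a differentially expressed gene (DEG) also had a log2 fold change above 1 in size. Adding 1 to each FPKM makes the fold changes of genes near or below an FPKM of 1 smaller than their FPKM ratios. Values are listed in the order of the library numbers, which were 1, 2, 4 and 5 for 2-cell control, 1, 2 and 4 for 2-cell KD, 1, 2, 7 and 8 for morula control, 1, 2 and 6 for morula KD, and 1, 4, 5 and 6 for both blastocyst groups.

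The knockdown was checked first. H2afz, which encodes H2A.Z.1, stood at 1244, 1236, 905 and 1178 FPKM in 2-cell control and at 415, 139 and 112 in 2-cell KD. It stood at 1158, 1336, 1511 and 1421 FPKM in morula control against 30.3, 25.7 and 29.0 in KD (log2 fold change -5.41, adjusted p = 9.72e-08). In blastocysts the control values were 2656, 2431, 1945 and 2055 FPKM and the KD values 64.2, 67.2, 53.2 and 57.6 (log2 fold change -5.19, adjusted p = 3.63e-08). Control and KD libraries did not overlap at any of the 3 stages, although the 2-cell difference (log2 fold change -2.53) did not pass the test (adjusted p = 0.544). H2afv, which encodes H2A.Z.2, lay at 111, 118, 96.8 and 113 FPKM in 2-cell control and 97.6, 85.4 and 83.7 in 2-cell KD (log2 fold change -0.23). It fell in morulae from 97.3, 113, 100.0 and 92.5 to 12.9, 11.0 and 9.90 FPKM (log2 fold change -2.94, adjusted p = 2.92e-06). In blastocysts it fell from 49.9, 62.0, 54.5 and 63.5 to 19.9, 16.9, 10.6 and 13.9 FPKM (log2 fold change -1.86, adjusted p = 7.98e-05).

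Oocyte, 2-cell and trophectoderm markers followed the stages of the labels. The summed FPKM of 6 oocyte genes was 878 ± 109 (SD, n = 4) in 2-cell control, with Oosp1 the most abundant, and 7.13 and 2.21 in morula and blastocyst control. The 5 markers of 2-cell embryos, led by Tcstv3, summed to 455 ± 123 FPKM in 2-cell control, 11.4 in morula control and 2.12 in blastocyst control. The 6 inner cell mass markers, led by Nanog, summed to 226 ± 27.4 FPKM in morula control and 231 ± 48.5 in blastocyst control, and the 10 trophectoderm markers, led by Krt18, to 169.5 ± 19.7 and 1255 ± 253. The 5 primitive endoderm markers, led by Gata6, summed to 14.4 ± 9.12 FPKM in morula control and 13.1 ± 4.96 in blastocyst control. Neither this sum nor that of the inner cell mass markers separated these stages, although some single markers of both lists did. Markers of cumulus and granulosa cells, which make steroids and surround the egg, were near 0. Their 11 genes, led by Tnfaip6, summed to between 1.46 and 3.36 FPKM in 2-cell control, and 5 to 9 of the 11 were at 0 in each of those libraries.

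Some libraries stood apart for these genes. Of the 30 members tested in blastocysts, 15 (50%) were highest in library 5 of both the control and the KD group, which held for 2358 of all 11828 genes tested (19.9%). Blastocyst control 5 was the highest of its group for 21 of 30 members (70.0%, against 35.8% of all genes) and blastocyst KD 5 for 22 of 30 (73.3%, against 39.6%). Blastocyst control 1 was the lowest of its group for 21 of 30 members (70.0%, against 47.8% of all genes), and blastocyst KD 1 for 15 of 30 (50%, against 30.5%). Of 25 members tested at the 2-cell stage, control 4 was the highest of its group for 15 (60.0%, against 30.6% of all genes). There control 2 was the lowest for 13 (52.0%, against 26.5%). Dhcr7, which makes cholesterol from its last precursor, shows the spread: its blastocyst values were 0.613, 1.29, 10.4 and 1.76 FPKM in control and 2.32, 1.20, 11.2 and 2.82 in KD. Library 5 stood far above the rest in both groups, and apart from it the ranges overlapped. Counts that use blastocysts are therefore also given without library 5 of both groups, an alternative chosen after seeing the data.

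**Figure D1:**
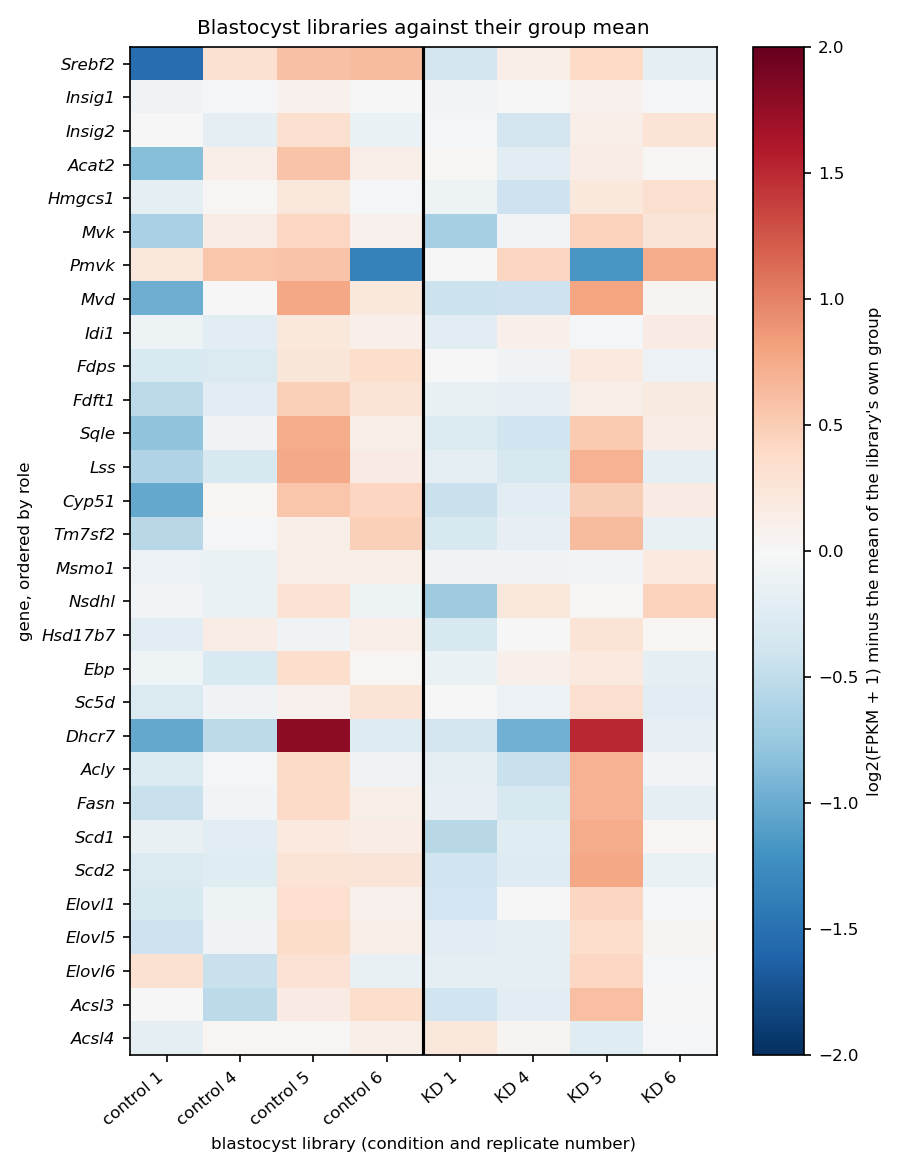
Each cell gives log2(FPKM + 1) of a member in a blastocyst library minus the mean of that library's own group, for the 30 members tested, with control libraries on the left and KD libraries on the right. Library 5 is the highest for 21 of 30 members in control and 22 of 30 in KD, and control 1 the lowest for 21 of 30.

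Between the 2-cell and the morula stage in control embryos the members moved in both directions. Of 28 members tested, 14 (50%) rose, against 43% of all 13655 genes, and 7 (25.0%) fell, against 40.3%. Among genes with an FPKM of 1 in 3 libraries of each stage, 9 of 21 members (42.9%) rose, against 46.5% of 7916 genes, and 5 (23.8%) fell, against 30.2%. The median log2 fold change of the members was 0.56, beside 0.10 over all genes. From morula to blastocyst the control embryos raised most of the set. Of 30 members tested, 21 (70.0%) rose, against 27.6% of all 11849 genes, and 1 (3.33%) fell, against 28.8%. Among genes past the filter in each stage these were 18 of 26 (69.2%, against 24.3% of 9259 genes) and 1 (3.85%, against 28.3%). The median was 0.94, beside -0.03 over all genes. Without library 5 the counts were 18 higher and 2 lower, beside 3049 and 3281 of all 11568 genes, with Dhcr7 joining Acsl4 among the lower members. KD embryos also raised the set over this interval, with 17 of 29 members (58.6%) higher, against 19.2% of all 11370 genes, and 2 (6.90%) lower, against 18.2%. Their median was 0.63, beside -0.03 over all genes. Without library 5 the counts were 16 and 2, beside 2220 and 2161 of all 10976 genes. They were 12 and 2 without the filter, beside 1751 and 1664 of 33797. They were also 12 and 2 without morula KD 2, beside 1527 and 1302 of 11114. Under FPKM as deposited they were 17 and 2, beside 2824 and 1368 of 11370. With FPKM used as deposited, with no scaling between libraries, the median over all genes in this KD comparison moved up by 0.16, and in the test of a difference between stages by 0.12. The KD comparisons share the control and KD libraries with these stage comparisons, so their values stand side by side and are not independent of each other.

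No member passed in 2-cell KD embryos. Of 25 tested, 0 were higher and 0 lower by limma, as for all 12160 genes (0% higher and 0% lower), and the members' median was -0.07, beside 0.00 over all genes. The number at an unadjusted p under 0.05 was 0 of 25 members and 701 (5.76%) of all genes, and each of the alternatives run also gave 0 members. In KD morulae 3 of 28 members (10.7%) were higher, against 4.22% of all 10989 genes, and 4 (14.3%) lower, against 9.05%. Among genes past the filter in each group these were 3 of 25 (12.0%, against 4.19% of 9099 genes) and 3 (12.0%, against 7.56%). With a term for the range of library numbers (low or high within a stage) the counts were 4 higher and 5 lower, beside 777 and 1261 of all 10989 genes. With equal totals the counts were 0 higher and 7 lower, beside 241 and 1779 of all 10989 genes. With FPKM as deposited they were 1 and 6, beside 281 and 1553, and without the filter 0 and 0, beside 129 and 283 of 32900. Among the calls of the reported fit, 1 was a DEG upward (all genes 1.00%) and 2 downward (all genes 2.59%). The median was -0.20, beside 0.02 over all genes. In KD blastocysts 1 of 30 members (3.33%) was higher, against 16.7% of all 11828 genes, and 11 (36.7%) lower, against 19.8%. Among genes past the filter in each group these were 1 of 28 (3.57%, against 15.1% of 9678 genes) and 10 (35.7%, against 18.5%). Of all 30 tested, 0 members were DEGs upward (all genes 6.10%) and 6 were DEGs downward (all genes 7.76%). The median was -0.33, beside 0.00 over all genes. Without library 5 the counts were 1 higher and 9 lower, beside 1687 and 1914 of all 11226 genes.

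**Figure D2:**
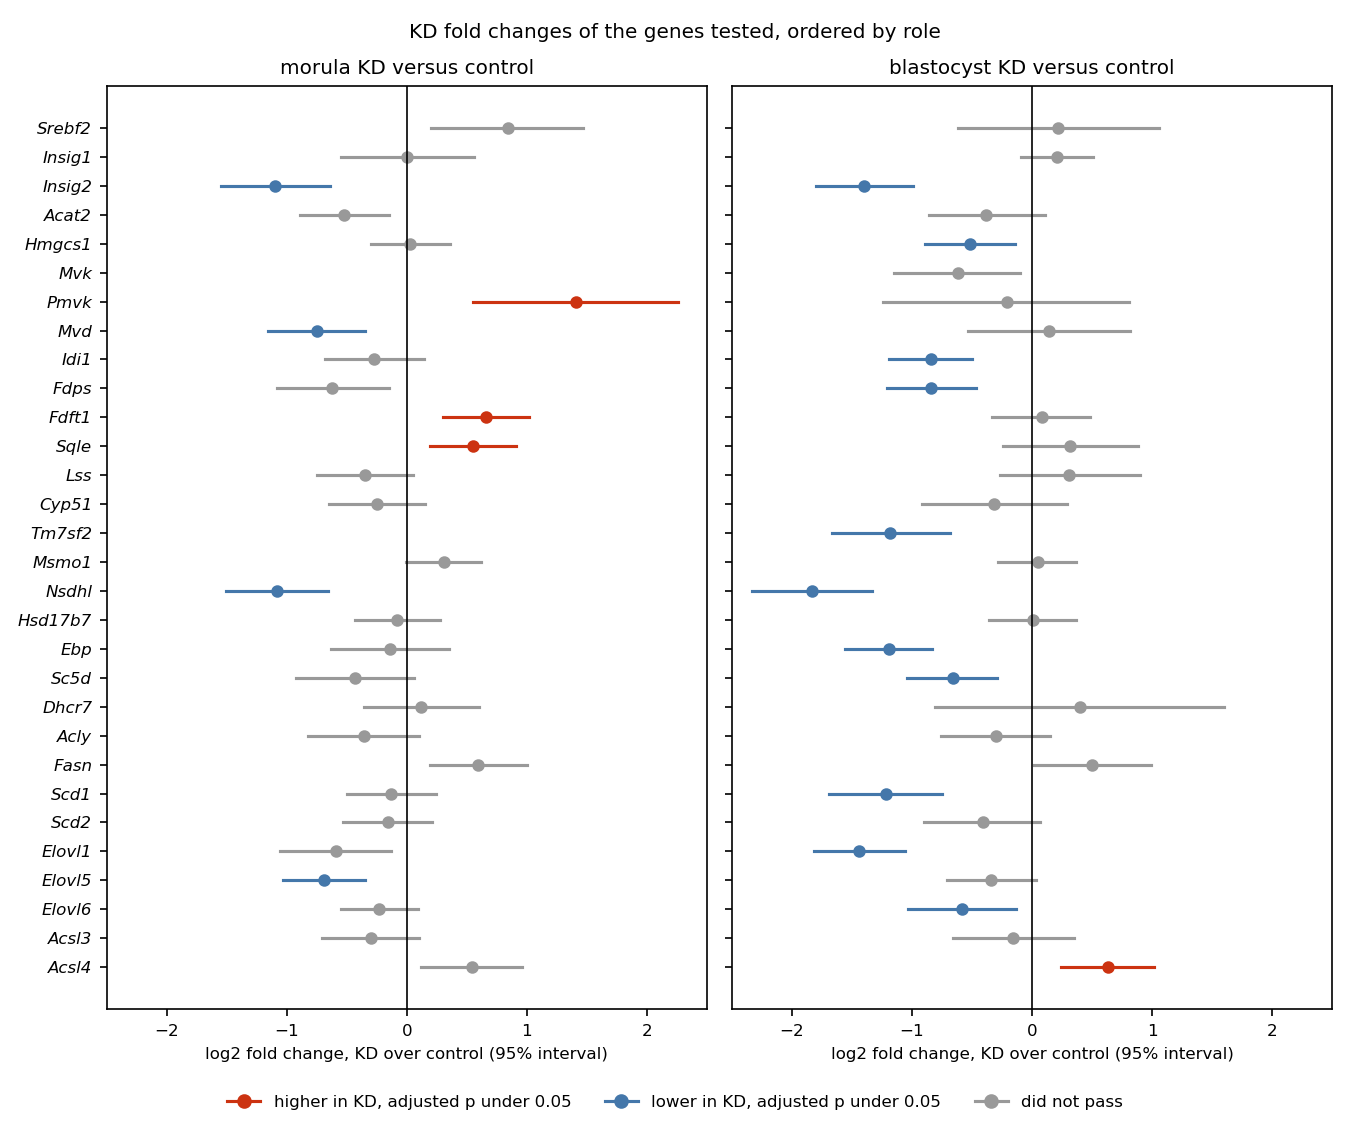
Points are log2 fold changes of KD over control with 95% confidence intervals, for morulae (4 control and 3 KD libraries) and blastocysts (4 and 4), red where a member was higher and blue where it was lower at an adjusted p under 0.05 by limma, and grey otherwise. In blastocysts 11 of 30 members are blue, from Hmgcs1 at -0.52 to Nsdhl at -1.83, and Acsl4 at 0.63 is red.

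The filter on low values removed 10 members from the 2-cell comparison, 7 from the morula comparison and 5 from the blastocyst comparison. In all, 23 members were tested in each of the 7 comparisons, and 4 in none: Srebf1, Acaca, Fads1 and Fads2. Some members did not reach an FPKM of 1 in 3 libraries of each group compared, so whether they were tested hung on 1 group or on both groups together. These were Srebf2, Insig2 and Fasn in the KD comparison of morulae, where Insig2 passed, and Tm7sf2 and Fasn in that of blastocysts, where Tm7sf2 passed. From 2-cell to morula in control they were Scap, Insig2, Mvk, Pmvk, Mvd, Lss and Scd2, and all 7 passed. From morula to blastocyst they were Srebf2, Mvk, Tm7sf2 and Fasn in control, of which 3 passed, and Srebf2, Insig2 and Mvk in KD, of which 2 passed. At the 2-cell stage they were Scap, Pmvk, Lss, Nsdhl, Dhcr7 and Elovl5, and 0 passed. Srebf2 in morulae, Fasn from morula to blastocyst in control and Pmvk at the 2-cell stage met the filter over both groups together and in neither alone.

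**Figure D3:**
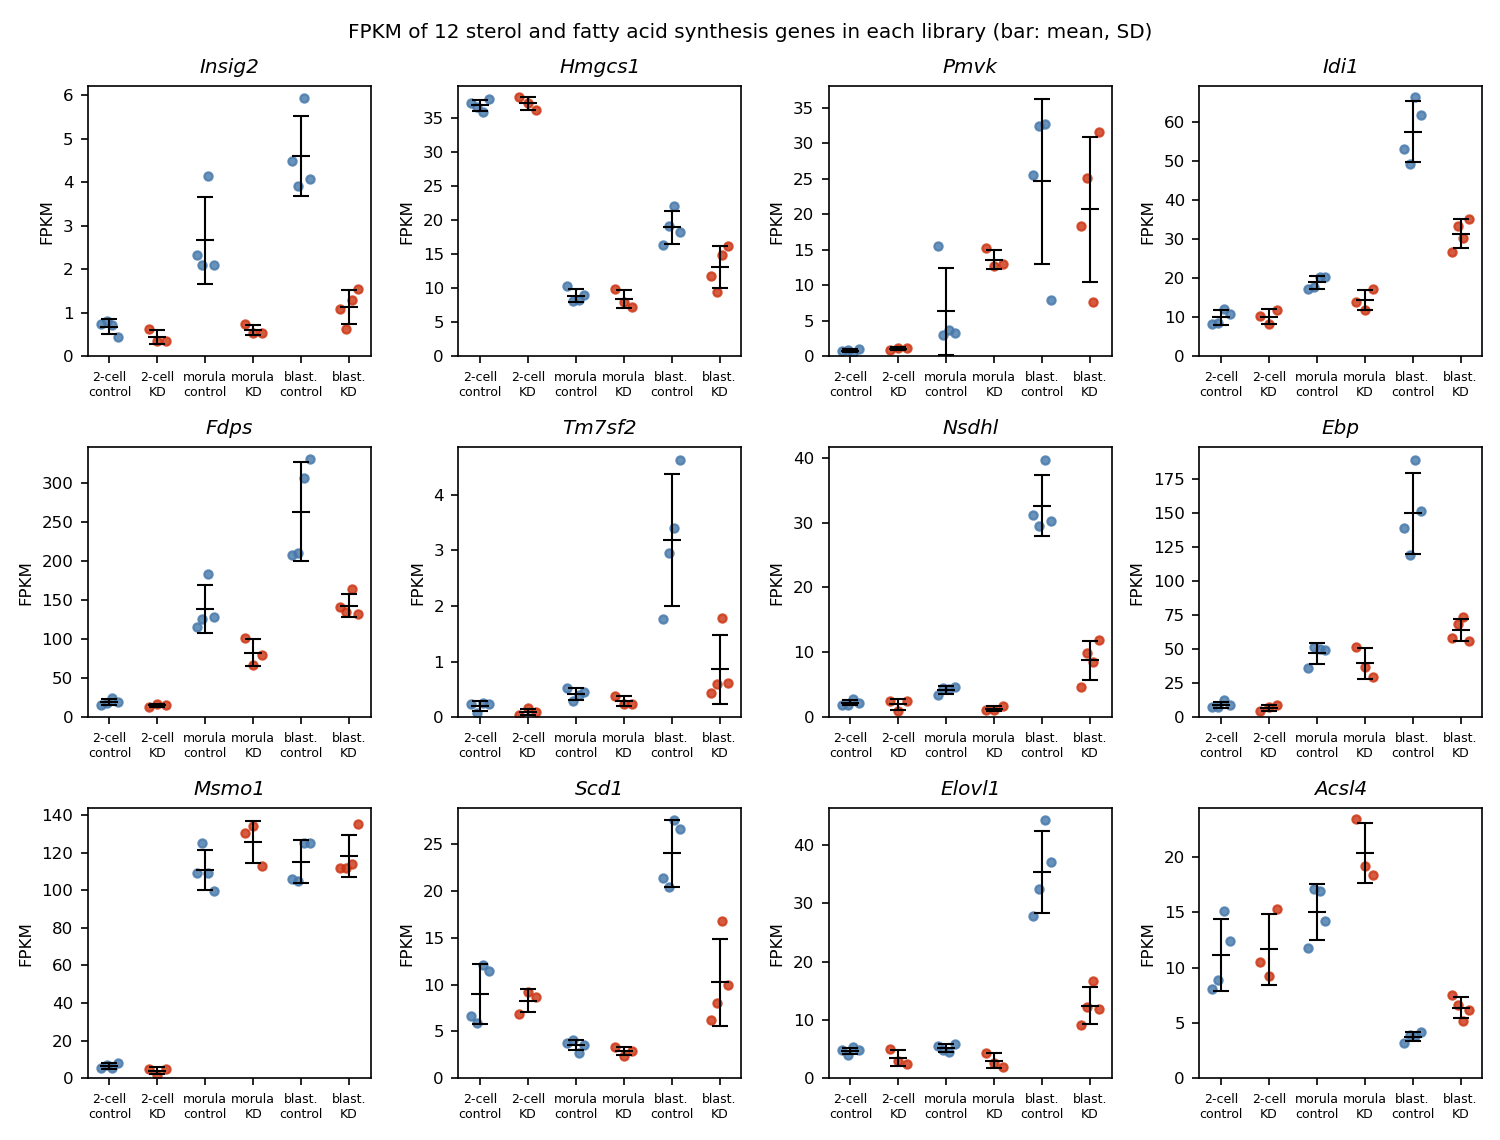
Points are FPKM of 12 members in each of the 22 libraries by stage and condition, control in blue and KD in red, and bars are the mean with the SD. Nsdhl and Ebp lie at 29.5 to 39.7 and 119 to 189 FPKM in blastocyst control and at 4.71 to 11.9 and 55.9 to 73.2 in blastocyst KD.

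Among the SREBP regulators, Insig2 was lower in KD embryos at both later stages. Insig2 encodes a membrane protein of the endoplasmic reticulum that retains SCAP there. Its FPKM was 2.32, 2.09, 4.15 and 2.09 in morula control and 0.744, 0.539 and 0.527 in morula KD (log2 fold change -1.10, adjusted p = 0.00937). In blastocysts it was 4.50, 3.92, 5.93 and 4.08 in control and 1.08, 0.628, 1.30 and 1.54 in KD (log2 fold change -1.40, adjusted p = 0.000176). Each KD library lay below each control library at both stages, and without library 5 the blastocyst log2 fold change was -1.32 (adjusted p = 0.00178). The morula call was lost when low genes were not filtered (adjusted p = 0.0657, range over the 13 alternatives 0.00453 to 0.0657), with the log2 fold change still -1.10. Insig2 met the filter through morula control alone, both against KD morulae and against the 2-cell control. At the 2-cell stage all values were below 1, at 0.748, 0.810, 0.729 and 0.434 FPKM in control and 0.635, 0.353 and 0.344 in KD. In control embryos Insig2 rose from 2-cell to morula (log2 fold change 1.09, adjusted p = 0.000210) and on to the blastocyst (0.57, adjusted p = 0.0312). The latter call was lost under 9 of 14 alternatives (adjusted p 0.00460 to 0.0891), among them leaving out morula control 1, 2 or 8 or blastocyst control 1 or 5. In KD embryos the morula and blastocyst values overlapped and the step did not pass (log2 fold change 0.31, adjusted p = 0.202).

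Insig1, the sterol-regulated partner of Insig2, did not follow it. Its 2-cell values were 30.4, 31.3, 35.1 and 40.4 FPKM in control and 37.5, 36.9 and 48.8 in KD. Its morula values were 16.4, 17.5, 25.4 and 26.8 in control and 20.7, 14.9 and 23.5 in KD, and these ranges overlapped. In blastocysts it read 42.5, 43.4, 47.4 and 45.0 FPKM in control and 49.4, 51.9, 54.5 and 49.9 in KD, all 4 KD libraries above all 4 control libraries. That difference was small and did not pass the test (log2 fold change 0.21, 95% confidence interval -0.09 to 0.51, adjusted p = 0.262). Insig1 fell from 2-cell to morula in control (log2 fold change -0.67, adjusted p = 0.0118, and 0.0581 without morula control 2) and rose from morula to blastocyst in control (0.96, adjusted p = 0.00154) and in KD (1.17, adjusted p = 0.000523). It was the most abundant of the SREBP regulators in all 6 groups by mean FPKM, a measure already divided by transcript length. The summed FPKM of the regulators overlapped in blastocysts, at 48.3 to 59.1 in control and 54.3 to 62.3 in KD.

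The genes for the factors themselves were low. Srebf2, whose product mainly drives sterol genes, read 0.0744, 0.0626, 0.0651 and 0.0566 FPKM in 2-cell control and 0.0379, 0.0735 and 0.721 in 2-cell KD. It read 1.12, 0.110, 0.117 and 1.21 FPKM in morula control and 2.51, 1.67 and 0.998 in morula KD. The morula groups overlapped, with control libraries 2 and 7 near 0.1, and the difference did not pass (log2 fold change 0.84, adjusted p = 0.0793, and 0.0471 without control library 8). With the library number as a block it passed as higher (1.08, adjusted p = 0.00121), although nothing given says that equal numbers pair libraries. In blastocysts it read 0.369, 3.90, 4.94 and 5.11 FPKM in control and 2.52, 3.97, 4.95 and 3.00 in KD. Blastocyst control 1 stood far below the other control libraries and the groups overlapped (log2 fold change 0.22, adjusted p = 0.695). From morula to blastocyst Srebf2 passed as higher in control (log2 fold change 1.29, adjusted p = 0.0210, groups overlapping) and in KD (0.63, adjusted p = 0.0473). The control call was lost under 7 of 14 alternatives (adjusted p 0.000246 to 0.115), among them leaving out morula control 2 or 7 or blastocyst control 4, 5 or 6. The KD call was lost under 8 of 13 (0.0328 to 0.196), among them leaving out morula KD 2 or 6 or blastocyst KD 4, 5 or 6.

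Srebf1, whose product mainly drives fatty acid genes, stayed at or under about 1 FPKM and did not meet the filter. Its values were 0.123, 0.0882, 0.0707 and 0.0322 FPKM in 2-cell control, 0.0633, 0.00853 and 0.0370 in 2-cell KD, 0.704, 0.327, 0.565 and 0.383 in morula control, and 0.366, 0.141 and 0.244 in morula KD. In blastocysts it read 0.608, 0.614, 0.680 and 0.692 in control and 0.922, 0.583, 1.14 and 0.689 in KD, and the groups overlapped. Scap, which escorts SREBP to the Golgi, was the regulator that fell after the 2-cell stage and did not return. It read 1.78, 4.19, 0.918 and 1.06 FPKM in 2-cell control, 1.45, 4.21 and 0.934 in 2-cell KD, 0.474, 0.242, 0.635 and 0.341 in morula control and 0.273, 0.287 and 0.283 in morula KD. All 4 morula control values lay below all 4 of the 2-cell control (log2 fold change -0.97, adjusted p = 0.00723). Scap was not tested without 2-cell control 1, 2 or 5, and control and KD overlapped at the 2-cell and morula stages. In blastocysts it read 0.353, 0.371, 0.159 and 0.247 in control and 0.390, 0.211, 0.438 and 0.420 in KD, below the level needed for a test. Library 2 held the highest Scap value in both 2-cell groups.

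The mevalonate pathway was lower in KD blastocysts for 3 of its 7 enzymes. All 7 enzymes were tested there, 0 rose (all genes 16.7%) and 3 fell (42.9%, against 19.8%), with a median of -0.52. Their summed FPKM was 259 ± 17.6 (SD, n = 4, 244 to 280.1) in KD against 433 ± 88.5 (n = 4, 337 to 525) in control. Fdps, which shares exonic bases with Gm43738, made up most of both sums, at a mean of 143 FPKM in KD and 263 in control. Idi1, which isomerises the activated isoprene unit, read 52.9, 49.1, 66.2 and 61.6 FPKM in control and 26.6, 33.4, 30.3 and 35.1 in KD (log2 fold change -0.84, adjusted p = 0.00172). Fdps, which joins isoprene units into farnesyl diphosphate, read 208, 209.9, 306 and 330.3 FPKM in control and 141, 135, 164 and 132 in KD (log2 fold change -0.84, adjusted p = 0.00245). For both enzymes each KD library lay below each control library, and both passed without library 5 (-0.74 and -0.81). Hmgcs1, which makes HMG-CoA, read 16.3, 19.1, 22.1 and 18.2 FPKM in control and 11.8, 9.37, 14.9 and 16.2 in KD (log2 fold change -0.52, adjusted p = 0.0326). KD library 6 reached to just under the lowest control library. The Hmgcs1 call was lost under 9 of 15 alternatives (adjusted p over all 15 from 0.0259 to 0.150). Among them, leaving out control library 4, 5 or 6 gave 0.0642, 0.0737 and 0.0572, KD library 1 or 4 gave 0.0629 and 0.0896, and both libraries 5 gave 0.0880.

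The other 4 mevalonate enzymes did not pass in KD blastocysts, and their groups overlapped. Mvk, the kinase that phosphorylates mevalonate, had a log2 fold change of -0.62 (95% confidence interval -1.15 to -0.10, adjusted p = 0.0620), and Acat2, which joins acetyl-CoA units, of -0.38 (adjusted p = 0.206). Without control library 1 both passed as lower (0.0229 and 0.0140). Mvk also passed with a term for the range of library numbers (low or high within a stage) (0.0113) and with the library number as a block (0.0162). Pmvk, which adds the next phosphate, was spread widely, with 25.6, 32.4, 32.7 and 7.96 FPKM in control and 18.4, 25.1, 7.70 and 31.6 in KD (log2 fold change -0.21, adjusted p = 0.761). Low values occurred in control library 6 and KD library 5. Mvd, which decarboxylates mevalonate diphosphate, had a log2 fold change of 0.14 (adjusted p = 0.756).

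In morulae the mevalonate enzymes split. Mvd was lower in KD morulae, at 4.11, 3.22 and 2.14 FPKM against 8.24, 6.09, 5.35 and 6.03 in control (log2 fold change -0.75, adjusted p = 0.0248). All 3 KD values lay below all 4 control values, but the call was lost under 6 of 13 alternatives (adjusted p 0.00993 to 0.0882). Among these, leaving out control library 2 or 8 gave 0.0509 and 0.0567, and KD library 2 or 6 gave 0.0747 and 0.0711. Pmvk was higher in KD, at 15.2, 12.7 and 13.0 FPKM against 15.5, 2.97, 3.64 and 3.23 in control (log2 fold change 1.41, adjusted p = 0.0372). Control library 1 lay above every KD library and the other 3 control libraries lay far below, so the groups overlapped. The Pmvk call was lost under 9 of 13 alternatives (adjusted p 0.000597 to 0.197), among them leaving out control library 2, 7 or 8 (0.0844, 0.0839 and 0.0839) or KD library 1, 2 or 6 (0.114, 0.103 and 0.0774). Acat2, Idi1 and Fdps did not overlap between the morula groups, all lower in KD, and did not pass (adjusted p = 0.0635, 0.348 and 0.0767). Acat2 and Fdps passed as lower with FPKM as deposited (0.0178 and 0.0247), with equal totals (0.0120 and 0.0149) and without control library 1 (0.0325 and 0.0276), and Acat2 with a term for the range of library numbers (0.0417). The summed FPKM of the pathway was 135 ± 22.6 (n = 3) in KD morulae and 201 ± 29.1 (n = 4) in control. Most of it came from Fdps, at a mean of 82.6 FPKM in KD and 139 in control.

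In control embryos the pathway changed in both directions after the 2-cell stage. Hmgcs1 fell from 37.1, 36.6, 35.8 and 37.8 FPKM at the 2-cell stage to 10.3, 8.12, 8.23 and 9.03 in morulae (log2 fold change -1.94, adjusted p = 1.22e-07). Mvk also passed as lower (-0.94, adjusted p = 0.00703, groups overlapping), a call lost with the library number as a block (adjusted p = 0.243). The other 5 enzymes rose, so 5 of 7 were higher (71.4%, against 43% of all genes) and 2 lower (28.6%, against 40.3%). Mvk met the filter through the 2-cell libraries alone, and Pmvk and Mvd through the morula libraries alone, the stage where each was high. Fdps rose from 16.1, 17.7, 24.2 and 20.2 to 116, 126, 184 and 129 FPKM (log2 fold change 2.75, adjusted p = 7.39e-08). Mvd rose from 0, 0.925, 1.70 and 1.20 to the morula values above (log2 fold change 2.01, adjusted p = 1.24e-05). No morula library overlapped the 2-cell range for Hmgcs1, Fdps or Mvd, and Mvd was listed at 0 in 2-cell control 1. From morula to blastocyst 6 of the 7 rose in control (85.7%, against 27.6% of all genes) and 5 in KD (71.4%, against 19.2%). Over this step Mvk met the filter through the blastocyst libraries alone in both conditions. Mvk rose from 1.73, 1.35, 0.869 and 0.806 to 5.01, 9.37, 11.6 and 8.97 FPKM in control (log2 fold change 2.07, adjusted p = 6.02e-06). In KD it rose from 0.145, 0.155 and 0.814 to 2.86, 4.84, 7.37 and 6.33 FPKM (2.08, adjusted p = 0.000143), and the stages did not overlap in either condition. Pmvk rose in control (log2 fold change 1.86, adjusted p = 0.00574, groups overlapping), although without the filter its adjusted p was 0.0529 (range over the 14 alternatives 0.000561 to 0.0529), and its step in KD did not pass (0.23, adjusted p = 0.661).

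Squalene and sterol synthesis held Nsdhl, the member with the lowest log2 fold change in KD blastocysts on the scale of log2(FPKM + 1). By the ratio of mean FPKM the order differs, with Insig2 at 4.61 in control and 1.14 in KD beside Nsdhl at 32.6 and 8.77. Its product acts with that of Msmo1 in removing methyl groups from the sterol ring. Nsdhl read 31.1, 29.5, 39.7 and 30.2 FPKM in blastocyst control and 4.71, 9.98, 8.52 and 11.9 in blastocyst KD (log2 fold change -1.83, 95% confidence interval -2.33 to -1.33, adjusted p = 0.000124). Each KD value lay far below each control value, and without library 5 the log2 fold change was -1.73 (adjusted p = 0.00180). It was already lower in KD morulae, at 1.17, 1.10 and 1.72 FPKM against 3.38, 4.56, 4.35 and 4.60 (log2 fold change -1.08, adjusted p = 0.00771). The morula groups did not overlap, and the call was lost, by little, when low genes were not filtered (adjusted p = 0.0517, range over the 13 alternatives 0.00130 to 0.0517). At the 2-cell stage the values overlapped, at 1.95, 1.93, 2.84 and 2.26 FPKM in control and 2.47, 0.953 and 2.53 in KD (log2 fold change -0.11). Nsdhl also had the highest log2 fold change of all members from morula to blastocyst in control (2.60, adjusted p = 3.15e-07), and in KD embryos it rose by 1.87 (adjusted p = 0.000258). The difference between those steps did not pass (-0.76, adjusted p = 0.124).

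Ebp, Tm7sf2 and Sc5d were the other enzymes of this branch that fell in KD blastocysts. Ebp, which moves a double bond within the sterol ring, read 139, 119, 189 and 151 FPKM in control and 58.1, 68.5, 73.2 and 55.9 in KD (log2 fold change -1.19, adjusted p = 0.000261). The groups were separate by a wide margin, and without library 5 the log2 fold change was -1.13 (adjusted p = 0.00183). In morulae Ebp overlapped, at 35.8, 51.6, 50.3 and 49.5 FPKM in control and 51.8, 37.2 and 29.5 in KD (log2 fold change -0.14, adjusted p = 0.704). Tm7sf2, a sterol reductase, read 1.76, 2.95, 3.40 and 4.63 FPKM in blastocyst control and 0.441, 0.601, 1.79 and 0.621 in KD (log2 fold change -1.18, adjusted p = 0.00203). KD library 5 reached just above control library 1, the remaining values were separate, and without library 5 the log2 fold change was -1.33 (adjusted p = 0.00253). In morulae it stayed under 1 FPKM in all libraries, at 0.530, 0.288, 0.397 and 0.463 in control and 0.388, 0.235 and 0.244 in KD, and was not tested there. In blastocysts it met the filter through the control libraries alone, where it was high. Sc5d, a desaturase of the sterol ring, read 7.31, 8.66, 9.84 and 11.3 FPKM in blastocyst control and 5.42, 4.89, 7.02 and 4.52 in KD (log2 fold change -0.66, adjusted p = 0.00960). Its groups did not overlap, and its call was lost when all libraries were set to equal totals (adjusted p = 0.0591, range over the 15 alternatives 0.00922 to 0.0591).

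The other 7 enzymes of the branch did not pass in KD blastocysts, and the branch as a whole had a median of 0.01, with 4 of 11 lower (36.4%, against 19.8% of all genes) and 0 higher (all genes 16.7%). Its summed FPKM overlapped in blastocysts, at 299 to 382 in KD (n = 4) and 368 to 565 in control (n = 4). In morulae the sum was 315 ± 36.3 (SD, n = 3) in KD and 273 ± 23.8 (n = 4) in control. Fdft1, which makes squalene, and Sqle, which oxidises it, had log2 fold changes of 0.08 and 0.32, Lss, which closes the ring, of 0.31, and Cyp51, which removes a methyl group from lanosterol, of -0.32. Msmo1, which oxidises the methyl groups that are then removed, had 0.05, Hsd17b7, the reductase of the same complex, 0.01, and Dhcr7 0.40. All 7 overlapped between the groups, and Cyp51 passed as lower without control library 1 (adjusted p = 0.0414). In KD morulae Fdft1 and Sqle passed as higher. Fdft1 read 128, 132 and 101 FPKM in KD against 85.8, 102, 71.3 and 73.0 in control (log2 fold change 0.66, adjusted p = 0.0251), and Sqle 16.9, 11.5 and 14.6 against 12.3, 9.09, 9.44 and 10.3 (0.55, adjusted p = 0.0491). For each gene the lowest KD library lay under the highest control library. The Fdft1 call was lost under 6 of 13 alternatives (adjusted p 0.0140 to 0.116), among them leaving out control library 7 or 8 (0.0658 and 0.0608) or KD library 1 or 2 (0.0899 and 0.116). The Sqle call was lost under 10 of 13 (0.0342 to 0.175), among them leaving out control library 2, 7 or 8 (0.110, 0.105 and 0.0778) or KD library 1, 2 or 6 (0.174, 0.0545 and 0.115).

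In control embryos Msmo1 had the largest log2 fold change of all members from 2-cell to morula. It read 5.64, 6.89, 5.31 and 8.28 FPKM in 2-cell control and 109, 125, 109 and 99.5 in morula control (log2 fold change 3.90, fold 14.9 on FPKM + 1, adjusted p = 2.13e-09). Ebp rose over the same interval from 7.51, 7.23, 12.4 and 9.17 FPKM (log2 fold change 2.26, adjusted p = 6.54e-07). Sqle fell from 30.7, 28.6, 35.5 and 32.9 FPKM (log2 fold change -1.56, adjusted p = 6.56e-07). The stages did not overlap for these 3 genes. From morula to blastocyst, Msmo1 did not pass in control (-0.03, adjusted p = 0.850) or KD (-0.29, adjusted p = 0.170). Cyp51 rose in both conditions, from 4.43, 3.50, 4.69 and 4.75 to 8.69, 19.3, 28.1 and 25.5 FPKM in control (log2 fold change 1.81, adjusted p = 0.000126) and from 3.41, 2.51 and 3.72 to 10.6, 12.5, 21.2 and 16.7 in KD (1.75, adjusted p = 0.000125). Each blastocyst library lay above each morula library. Fdft1 fell in KD embryos to 75.5, 74.3, 91.0 and 95 FPKM in blastocysts (log2 fold change -0.71, adjusted p = 0.00435), below all 3 morula KD libraries, and in control its blastocyst values were 55.1, 68.3, 111 and 95.9 (-0.13, adjusted p = 0.587).

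Fatty acid synthesis itself had few transcripts. Fasn, fatty acid synthase, lay between 0.445 and 3.52 FPKM over all 22 libraries, and Acaca, acetyl-CoA carboxylase, stayed under 1 FPKM in each and was not tested. Fasn was higher by 0.59 in KD morulae (adjusted p = 0.0578) and by 0.50 in KD blastocysts (adjusted p = 0.0963), and neither passed. In morulae it passed with a term for the range of library numbers (0.0402), without control library 1 (0.0435) and without KD library 6 (0.0461). In blastocysts it passed with the library number as a block (0.0463). Acly, which makes cytosolic acetyl-CoA from citrate, rose from 2-cell to morula in control (4.70 ± 1.96 to 11.1 ± 0.921 FPKM, SD, n = 4, log2 fold change 1.14, adjusted p = 0.000182). Its KD differences did not pass in morulae (-0.36, adjusted p = 0.271) or blastocysts (-0.30, adjusted p = 0.276), and the groups overlapped.

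The desaturases and elongases were lower in KD blastocysts for 3 of the 5 members tested. Of 7 members 5 were tested, 3 fell (60.0%, against 19.8% of all genes), 0 rose (all genes 16.7%) and all 5 had log2 fold changes below 0, with a median of -0.58, and the summed FPKM was 88.3 ± 23.9 (n = 4, 69.9 to 123) in KD against 154 ± 25.1 (n = 4, 127 to 187) in control. Elovl1, which lengthens saturated and monounsaturated very long chains, read 27.8, 32.4, 44.2 and 37.0 FPKM in control and 9.07, 12.3, 16.7 and 11.8 in KD (log2 fold change -1.44, adjusted p = 0.000101). Scd1, which puts a double bond into stearate and palmitate, read 21.4, 20.4, 27.5 and 26.6 FPKM in control and 6.25, 8.0, 16.8 and 9.94 in KD (log2 fold change -1.22, adjusted p = 0.00121). The groups were separate for both genes, with KD library 5 the highest of the KD libraries each time, and without library 5 the log2 fold changes were -1.45 and -1.38. Elovl6, which lengthens palmitate, read 70.7, 41.7, 70.3 and 51.2 FPKM in control and 33.1, 33.0, 50.5 and 36.8 in KD (log2 fold change -0.58, adjusted p = 0.0454), and KD library 5 lay above control library 4. Its call was lost under 9 of 15 alternatives (adjusted p 0.0170 to 0.135). Among them, leaving out control library 1, 5 or 6 gave 0.107, 0.101 and 0.0540, KD library 1, 4 or 6 gave 0.0972, 0.0913 and 0.0992, and both libraries 5 gave 0.0785. Scd2, a relative of Scd1, and Elovl5, which lengthens polyunsaturated chains, did not pass (log2 fold changes -0.41 and -0.34, adjusted p = 0.169 and 0.134), although Scd2 passed as lower without KD library 5 (0.0233).

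At the morula stage Elovl5 was the member of this role that passed. It read 7.86, 6.71 and 7.31 FPKM in KD and 16.5, 14.2, 10.9 and 12.9 in control (log2 fold change -0.69, adjusted p = 0.0174), with no overlap. The call was lost under 3 of 13 alternatives (adjusted p 0.00907 to 0.0806), among them leaving out KD library 1 (0.0584) or 2 (0.0806). Elovl1 read 4.37, 2.71 and 1.87 FPKM in KD morulae and 5.54, 4.91, 4.49 and 5.95 in control, with no overlap, and did not pass (log2 fold change -0.59, adjusted p = 0.0857, and 0.0455 with equal totals and 0.0489 without KD library 1). Scd1 read 3.29, 2.43 and 2.94 in KD and 3.78, 4.06, 2.74 and 3.58 in control, which overlapped (-0.13, adjusted p = 0.641). Fads1 and Fads2, which desaturate polyunsaturated chains, stayed under 2 FPKM in all libraries and were not tested, Fads1 between 0 and 1.52 and Fads2 between 0 and 0.598.

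Over development Scd1 and Elovl5 moved in different ways in control embryos. Scd1 fell from 6.62, 5.94, 12.1 and 11.4 FPKM at the 2-cell stage to the morula values above (log2 fold change -1.10, adjusted p = 0.000313) and then rose in the blastocyst (2.38, adjusted p = 3.83e-07). Elovl5 rose from 1.57, 0.116, 2.51 and 1.91 FPKM at the 2-cell stage to the morula values (2.65, adjusted p = 3.73e-06) and to 16.6, 21.5, 29.3 and 24.7 in the blastocyst (0.62, adjusted p = 0.00741, and 0.0609 with equal totals). Successive stages did not overlap for either gene. Elovl1 lay at 4.82, 4.05, 5.31 and 4.85 FPKM in 2-cell control, overlapped with morula control and then rose in the blastocyst (log2 fold change 2.45, adjusted p = 2.87e-07). All 5 tested members of the role rose from morula to blastocyst in control (all genes 27.6%) and 4 of 5 in KD (80.0%, against 19.2%). The control call of Elovl6 was lost under 4 of 14 alternatives (adjusted p 0.00483 to 0.0679), namely without the filter, without blastocyst library 5 of both groups or of control alone, and without morula control 2. In KD the rise of Elovl1 was 1.62 (adjusted p = 0.000298) and that of Scd2 1.30 (adjusted p = 0.00179), the latter from 3.36, 2.1 and 1.96 to 6.14, 6.87, 15.1 and 7.58 FPKM. No KD blastocyst library overlapped the KD morulae for these 2 genes, and KD library 5 was the highest for both.

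The acyl-CoA synthetases, which activate fatty acids for use, held the member that was higher in KD blastocysts. Acsl4, with a preference for arachidonate, read 3.19, 3.90, 3.86 and 4.15 FPKM in control and 7.54, 6.61, 5.22 and 6.15 in KD (log2 fold change 0.63, adjusted p = 0.0165). All 4 KD libraries lay above all 4 control libraries, and without library 5 the log2 fold change was 0.73 (adjusted p = 0.0151). In morulae it also lay higher in each KD library, at 23.4, 19.2 and 18.4 FPKM against 11.8, 17.1, 16.9 and 14.2, and did not pass (0.54, adjusted p = 0.0857, and 0.0333 with the library number as a block). Acsl4 was the member that fell from morula to blastocyst in control (log2 fold change -1.81, adjusted p = 5.36e-06), and it fell in KD as well (-1.71, adjusted p = 7.46e-05). Acsl3 fell in control from 10.8, 12.0, 10.2 and 12.6 FPKM at the 2-cell stage to 3.59, 2.95, 2.33 and 3.78 in morulae (log2 fold change -1.59, adjusted p = 3.38e-06), with no overlap. Its KD differences did not pass in morulae (-0.30, adjusted p = 0.284) or blastocysts (-0.16, adjusted p = 0.635).

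The effect of KD was then compared between blastocysts and morulae, as a difference of differences over those 15 libraries. Of 30 members tested, 0 had a higher effect in blastocysts (all 12727 genes 5.43%) and 4 (13.3%) a lower one (all genes 6.30%), with a median of -0.27, beside -0.01 over all genes. At an unadjusted p under 0.05 the limma fit gave 1 higher and 9 lower, or 10 of 30, beside 27.3% of all genes, and none of the alternatives gave a higher member. The 4 were Scd1 (-1.12, adjusted p = 0.0172), Ebp (-1.09, adjusted p = 0.0176), Tm7sf2 (-1.07, adjusted p = 0.0189) and Elovl1 (-0.87, adjusted p = 0.0469). Side by side, the KD effects in morulae and blastocysts were -0.13 and -1.22 for Scd1, -0.14 and -1.19 for Ebp and -0.59 and -1.44 for Elovl1. Tm7sf2 reached 1 FPKM in all 4 blastocyst control libraries, in 1 blastocyst KD library and in no morula library, so it was tested only because of its level in control blastocysts. Pmvk, not among the 4, passed as lower without morula control 1 (-2.10, adjusted p = 0.0452) and without blastocyst control 6 (-2.12, adjusted p = 0.0394). None of the 4 kept its call under every alternative. Elovl1 lost it under 18 of 21 (adjusted p 0.0214 to 0.237). Among these were each single library left out except morula control 8, morula KD 6 and blastocyst KD 5, with adjusted p from 0.0508 to 0.142, and without morula KD 1 its value was -0.65. Leaving out morula KD 1 also took Ebp to 0.0632 (range 0.0139 to 0.0696) and Tm7sf2 to 0.0530 (range 0.00414 to 0.0699), while Scd1 kept its call without any single library. Without morula KD 1 the count of lower members was 1, beside 545 of all 12626 genes. With libraries set to equal totals it was 0, beside 507 of all 12727, and with FPKM as deposited 2, beside 703. Over all genes 46.3% of the calls in this comparison were higher, and 71.3% with equal totals. For Insig2 (-0.29, adjusted p = 0.532) and Nsdhl (-0.76, adjusted p = 0.124), which passed at both stages, no difference between the stages was called. Without library 5 the count of lower members was 3, beside 736 of all 12400 genes.

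Genes of neighbouring pathways were counted in 7 lists with 108 genes. In KD blastocysts 79 were tested, 9 were higher (11.4%, against 16.7% of all genes) and 18 lower (22.8%, against 19.8%), with a median of -0.14. In KD morulae 1 of 70 was higher (1.43%, against 4.22%) and 10 lower (14.3%, against 9.05%), with a median of -0.16. Of 10 tested glycerolipid genes 4 were higher in KD blastocysts and 1 lower, led by Agpat5, an acyltransferase (2.55 to 8.16 FPKM, log2 fold change 1.36, adjusted p = 0.000371), and Plin2, a coat protein of lipid droplets, was the lower (-0.65, adjusted p = 0.0118). Of 14 other genes of fatty acid synthesis and elongation 5 were lower, led by Acsl5 (-0.97, adjusted p = 0.000425), and 1 higher, Elovl3 (1.35, adjusted p = 0.000928), which stood at 0.0293 FPKM in control and met the filter through the KD libraries alone. Of 9 genes that supply acetyl-CoA and NADPH 2 were lower, led by Mdh1, malate dehydrogenase (136 to 36.5 FPKM, -1.84, adjusted p = 0.000112), and 1 higher, Aacs (0.81, adjusted p = 0.0379, groups overlapping). Of 10 genes of sterol uptake, transport, storage and efflux 2 were lower, led by Npc1, which exports cholesterol from lysosomes (-1.34, adjusted p = 0.000135), and 2 higher, led by Nr1h2, a sterol-responsive receptor (1.49, adjusted p = 0.00477, groups overlapping). Of 9 genes of SREBP cleavage and sterol-regulated degradation 2 were lower, led by Tmub1 (-0.85, adjusted p = 0.00351), and 0 higher. Of 11 genes of other isoprenoid branches 3 were lower, led by Pdss1 (-0.67, adjusted p = 0.00986), and 0 higher. Of 16 genes of fatty acid oxidation 3 were lower, led by Echs1 (-1.23, adjusted p = 0.000392), and 1 higher, Slc25a20 (0.78, adjusted p = 0.0438, groups overlapping). In the morula to blastocyst step of control embryos 34 of 78 of these genes rose (43.6%, against 27.6% of all genes) and 15 fell (19.2%, against 28.8%). From 2-cell to morula 44 of 76 rose (57.9%, against 43%) and 19 fell (25.0%, against 40.3%).

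Summed levels of the members and of the trophectoderm markers were lower in KD blastocysts, while single trophectoderm genes went both ways. The summed FPKM of all 35 members was 923 to 1369 in blastocyst control (1116 ± 209.6, n = 4) and 692 to 888 in KD (772 ± 89.0, n = 4). The 10 trophectoderm markers summed to 1037, 1543, 1393 and 1047 FPKM in control and 658, 795, 889 and 677 in KD, with Krt18 the most abundant (799 to 389.7 FPKM, log2 fold change -1.02, adjusted p = 0.00126). None of the 10 was at 0 in a blastocyst library, all were tested, 2 were lower in KD, led by Elf5 (1.66 to 0.105 FPKM, -1.24, adjusted p = 0.000507), 3 were higher, led by Aqp3 (26.1 to 51.1 FPKM, 0.99, adjusted p = 0.0155, groups overlapping), and 5 did not pass. Elf5 was at most 0.186 FPKM in KD and met the filter through the control libraries alone. The 6 inner cell mass markers summed to 212, 231, 298 and 184 FPKM in control and 151, 168, 295 and 210.3 in KD, with library 5 highest in both groups. Of the 5 tested, 1 was lower, Tdgf1 (-2.28, adjusted p = 3.00e-05). The markers of 2-cell embryos summed to 2.63, 3.36, 0.428 and 2.07 FPKM in control and 8.31, 19.1, 4.09 and 27.8 in KD, with 2 of 3 tested higher, led by Tcstv3 (2.01, adjusted p = 0.0145). Tcstv3 read 0.248 to 1.69 FPKM in control and 0.988 to 18.8 in KD, so its groups overlapped. None of these 3 met the filter in the control libraries alone. Primitive endoderm markers summed to 10.3, 11.3, 10.3 and 20.5 FPKM in control and 12.4, 10.2, 37.4 and 20.2 in KD. In morulae the inner cell mass markers summed to 226 ± 27.4 FPKM (n = 4) in control and 121 ± 34.6 (n = 3) in KD. Of the 4 tested, 1 was lower, Nanog (-2.23, adjusted p = 0.00645), and 1 higher, Klf2 (5.41 to 8.56 FPKM, 0.71, adjusted p = 0.0279). The part of these markers in the members' results was not tested, nor was that of any lag of KD blastocysts behind control.

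Some members share sequence or exons with other genes, and the libraries carry no strand, so their levels are less certain. Fdps shares 1124 exonic bases with Gm43738 on the same strand and 23.42% of its 50-base stretches with it, Acat2 shares 39.1% with Acat3, Idi1 17.67% with Gm13502, and Acaca 29.16% with Gm5182. Fdft1 overlaps Ctsb on the opposite strand by 774 exonic bases, and Tm7sf2 overlaps Vps51 on the same strand by 532. For Elovl1 the overlap with Cdc20 is 53 bases, and for Scd1 3.42% of 50-base stretches also occur in Scd3. How reads were divided between these genes is unknown.

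The 6 DEGs lower in KD blastocysts and Acsl4, the member that was higher, were placed on GRCm38. Nsdhl (ENSMUSG00000031349.4) spans chrX:72918557-72958514, Ebp (ENSMUSG00000031168.14) chrX:8185329-8193512 and Acsl4 (ENSMUSG00000031278.12) chrX:142317993-142390535. Elovl1 (ENSMUSG00000006390.15) spans chr4:118428093-118432953 and Insig2 (ENSMUSG00000003721.14) chr1:121304353-121332589. Scd1 (ENSMUSG00000037071.3) spans chr19:44394455-44407879 and Tm7sf2 (ENSMUSG00000024799.16) chr19:6062821-6068373.

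Promoter sequences were read for 29 of the 35 members, as 300 bases around the start of the gene, from RefSeq on build GRCm38.p6. They were searched on both strands for TCACNCCAC, a form of the sterol regulatory element that SREBP binds, and for CCAAT, the box bound by NF-Y, a factor that works beside SREBP on many sterol genes. The sterol element was in 1 of 29 members (3.45%), beside 1.44% of all 27025 genes, and CCAAT in 23 of 29 (79.3%), beside 41.1%. Some genes have several promoters in the table and were counted if any held the motif. By promoter, CCAAT was in 24 of 38 of the members and in 37.4% of all 32851. Insig2 had 3 promoters, 2 of them without CCAAT, and Elovl1 had 2, 1 of them without. For each gene the promoter nearest the annotated start of the gene is shown, which for these 2 is the 1 with CCAAT. The sequences shown are those of Nsdhl, Elovl1, Insig2 and Ebp, taken by their log2 fold changes in KD blastocysts on log2(FPKM + 1), where Tm7sf2 came just after Ebp (-1.18 and -1.19), of Acsl4, the member that was higher, and of Hmgcs1, the member with the sterol element. Scd1, also among the lowest, had none in the table. Each is written 5′ to 3′ along the gene. Nsdhl is chrX:72918271-72918570 on the plus strand, Elovl1 chr4:118427843-118428142 (plus), Insig2 chr1:121332540-121332839 (minus), Ebp chrX:8193463-8193762 (minus), Acsl4 chrX:142390486-142390785 (minus) and Hmgcs1 chr13:119690101-119690400 (plus). Capitals mark CCAAT, its reverse complement ATTGG, and the sterol element, none of which overlap.
Nsdhl: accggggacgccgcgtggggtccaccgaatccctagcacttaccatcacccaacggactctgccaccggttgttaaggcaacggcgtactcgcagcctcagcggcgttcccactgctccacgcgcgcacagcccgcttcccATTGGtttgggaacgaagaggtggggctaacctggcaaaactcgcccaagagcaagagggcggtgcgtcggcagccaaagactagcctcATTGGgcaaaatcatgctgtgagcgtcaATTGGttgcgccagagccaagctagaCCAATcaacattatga
Elovl1: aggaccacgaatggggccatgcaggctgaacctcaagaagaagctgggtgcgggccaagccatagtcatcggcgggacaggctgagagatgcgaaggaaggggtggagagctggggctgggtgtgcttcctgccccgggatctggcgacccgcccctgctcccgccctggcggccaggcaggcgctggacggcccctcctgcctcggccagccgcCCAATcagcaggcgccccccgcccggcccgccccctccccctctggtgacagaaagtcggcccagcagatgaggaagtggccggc
Insig2: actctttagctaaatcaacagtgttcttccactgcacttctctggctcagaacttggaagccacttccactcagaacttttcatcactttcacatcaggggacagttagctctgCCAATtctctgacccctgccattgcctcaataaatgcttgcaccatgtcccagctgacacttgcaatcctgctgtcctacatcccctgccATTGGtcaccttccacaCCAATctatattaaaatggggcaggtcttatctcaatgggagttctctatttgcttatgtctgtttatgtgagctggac
Ebp: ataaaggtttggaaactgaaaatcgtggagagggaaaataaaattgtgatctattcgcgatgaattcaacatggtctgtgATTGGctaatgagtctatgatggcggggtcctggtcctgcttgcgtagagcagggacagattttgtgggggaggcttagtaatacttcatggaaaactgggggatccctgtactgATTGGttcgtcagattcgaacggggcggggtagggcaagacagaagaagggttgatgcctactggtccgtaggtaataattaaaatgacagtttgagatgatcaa
Acsl4: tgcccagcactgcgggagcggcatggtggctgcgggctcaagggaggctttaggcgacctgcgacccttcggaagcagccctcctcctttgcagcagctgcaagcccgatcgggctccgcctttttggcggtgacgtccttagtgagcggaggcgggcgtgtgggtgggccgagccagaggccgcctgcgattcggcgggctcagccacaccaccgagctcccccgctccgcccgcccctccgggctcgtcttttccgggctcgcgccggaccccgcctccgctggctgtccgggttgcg
Hmgcs1: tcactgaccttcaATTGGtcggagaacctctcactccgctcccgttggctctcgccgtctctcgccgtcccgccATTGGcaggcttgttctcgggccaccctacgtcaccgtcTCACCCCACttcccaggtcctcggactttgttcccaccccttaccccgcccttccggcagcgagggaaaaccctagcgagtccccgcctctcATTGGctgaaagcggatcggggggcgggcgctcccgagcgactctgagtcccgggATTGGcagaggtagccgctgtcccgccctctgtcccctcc
The CCAAT box occurred 4 times in the Nsdhl promoter, 1 time in Elovl1, 3 in Insig2, 2 in Ebp, 0 in Acsl4 and 4 in Hmgcs1, and Hmgcs1 held 1 sterol element. A match is a description of the letters and not a measured binding site.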

How the data were processed

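The deposited FPKM table of the authors was used, made with STAR and StringTie 2.1.4, with DESeq2 1.30.1 as their tool for differences. Read counts were not recovered, since only 15.9% to 25.7% of low values lay within 0.05 of a whole step. In R 4.3.3, limma 3.58.1 (trend) was fitted to log2(FPKM + 1) over all genes that reached an FPKM of 1 in 3 or more libraries of a fit, after scaling by the median of ratios, with Benjamini-Hochberg over all genes tested. Gene IDs were matched to GENCODE vM21, 54587 with their version and 55154 in any version. Sequences and tables were handled in Python 3.11.15 with pandas 2.3.3, numpy 2.4.6 and matplotlib 3.10.9. Alternatives were FPKM as deposited, equal totals, a pseudocount of 0.1, no filter, the range of replicate numbers as a term, the replicate number as a block, each library left out, and blastocyst libraries 5 left out. The procedure was tested on simulated data. All 35 members could be named. Values per library are given for the 5 SREBP regulators and, in each comparison and direction, up to 5 passing members with the largest log2 fold changes. Of the other lists, the passing gene with the largest change per list, direction and comparison could be named, and each marker list's most abundant gene. Values per library of other members were chosen after their values were seen. The members and lists were chosen with earlier results of these data known.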

Additional observations from a re-analysis of the deposited data

Results flagged for a closer look

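In groups of 4 libraries, a member was listed when its highest or lowest library lay apart from the others by a share of the group's range above Dixon's 95% critical value. That held for 12 of 113 groups of members with tested levels, and chance does so in about 1 in 20 groups, or 5.65 of 113.

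Dhcr7 was high in 2-cell control 5 at 2.97 FPKM, with the others at 1.11 to 1.40. Insig2 was high in morula control 7 at 4.15 (others 2.09 to 2.32). In morula control 1, Pmvk was high at 15.5 (others 2.97 to 3.64) and Ebp low at 35.8 (others 49.5 to 51.6). In blastocyst control 5, Nsdhl was high at 39.7 (others 29.5 to 31.1) and Dhcr7 at 10.4 (others 0.613 to 1.76).

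Blastocyst KD 5 was high for 5 members: Lss at 8.68 FPKM (others 3.80 to 4.25), Tm7sf2 at 1.79 (others 0.441 to 0.621), Dhcr7 at 11.2 (others 1.20 to 2.82), Fasn at 3.52 (others 1.22 to 1.48) and Scd2 at 15.1 (others 6.14 to 7.58). Msmo1 was high in blastocyst KD 6 at 135 (others 112 to 114).

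The KD effect differed between blastocysts and morulae, by the limma test of that difference, for Ebp (-1.09), Scd1 (-1.12), Elovl1 (-0.87) and Tm7sf2 (-1.07). The Elovl1 call was lost under 18 of 21 alternatives and the others under 3 or 4. Tm7sf2 met the filter through blastocyst control alone, where it was high.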

How the results depend on the processing

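Over all comparisons 85 member calls passed, of which 55 were kept under every alternative and 29 were lost under at least 1. The remaining call, Scap from 2-cell to morula in control, was not tested without 2-cell control 1, 2 or 5 and was kept under the other 11 alternatives. All alternatives kept 9 of 12 calls in KD blastocysts, 16 of 21 from 2-cell to morula in control, 17 of 22 from morula to blastocyst in control and 13 of 19 from morula to blastocyst in KD. Among the steps between stages, the calls lost under 7 or more were Srebf2 (7 of 14) and Insig2 (9 of 14) from morula to blastocyst in control, and Srebf2 (8 of 13) and Ebp (10 of 13) over that step in KD. None of the 7 morula KD calls and none of the 4 differences between stages was kept under every alternative. The cause was not tested.

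Higher members in KD morulae numbered 3, and 1 with FPKM as deposited, 0 with equal totals, 0 without the filter, and 0 to 4 with each library left out (1 without control 2 or 8, 0 without control 7, KD 1 or KD 2). Over all genes, higher calls there numbered 464, and 281, 241 and 129 under those settings, and 140 to 558 with each library left out. Lower members there numbered 4, and 6 with FPKM as deposited, 7 with equal totals, 0 without the filter, and 2 to 6 with each library left out (2 without KD 2, 6 without control 1). Lower calls over all genes numbered 995, and 1553, 1779 and 283 under those settings, and 412 to 1186 with each library left out. In KD blastocysts 1 member was higher, and 2 with the replicate number as a block, beside 1977 and 2110 of all 11828 genes. Lower members there numbered 11, and 8 with equal totals, 10 with FPKM as deposited, and 9 to 13 with each library left out. Lower calls over all genes numbered 2344, and 1924 and 2375 under those settings, and 1897 to 2272 with each library left out. From morula to blastocyst in control 1 member was lower, and 2 without the filter, 2 without blastocyst libraries 5 (chosen after seeing the data), and 1 to 2 with each library left out (2 without blastocyst control 5). Lower calls over all genes numbered 3412, and 3922 and 3281 under those settings, and 2993 to 3281 with each library left out. Members with a lower KD effect in blastocysts than in morulae numbered 4, and 2 with FPKM as deposited, 0 with equal totals, 2 with a pseudocount of 0.1, 0 without the filter, and 1 to 4 with each library left out (1 without morula KD 1). Lower calls over all genes numbered 802, and 703, 507, 576 and 584 under those settings, and 545 to 894 with each library left out.

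With the replicate number as a block, KD morulae had 4 members higher and 3 lower, beside 645 and 979 of all 10989 genes. KD blastocysts had 2 and 12, beside 2110 and 2461 of 11828. The 2-cell to morula step in control had 14 and 6, beside 5566 and 5241 of 13655. In 2-cell KD there were 0 and 0, as for all 12160 genes. The block gained Srebf2 and Acsl4 as higher in KD morulae (adjusted p = 0.00121 and 0.0333) and Fasn as higher and Mvk as lower in KD blastocysts (0.0463 and 0.0162). It lost Mvd and Sqle in KD morulae and Mvk from 2-cell to morula (adjusted p = 0.243), and changed no other call. Nothing given says that equal numbers pair libraries. Correlations of library deviations between control and KD at equal numbers were 0.015 to 0.214 in 2-cell embryos, 0.094 and 0.181 in morulae and -0.11 to 0.353 in blastocysts, so the libraries did not all go best with their own number. In morulae, pairs from the same range of numbers had 0.094 to 0.346 and pairs across ranges -0.278 to -0.094. Over all genes, 31.8% of morula KD calls were higher, and 15.3% with FPKM as deposited and 11.9% with equal totals. Depth in reads is unknown. Members under the filter were tested only without it, where Srebf1 (0.46, adjusted p = 0.00187), Fads1 (0.41, 0.0243) and Tm7sf2 (0.24, 0.0460) passed as higher from 2-cell to morula in control. Fads2 (0.10, 0.0174) passed as higher and Acaca (-0.35, 0.0295) as lower from morula to blastocyst in control.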
